A study of Mus musculus with 30 samples.

Results

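The genes described here were 10 hepatic nuclear receptors that stand outside the core circadian clock: *Hnf4a*, *Nr1i2*, *Nr1i3*, *Nr1h3*, *Nr5a2*, *Rxra*, *Nr3c1*, *Ppard*, *Thrb*, and *Esr1*. They were taken by name and made up 10 of 54429 rows of the time-course table and 10 of 55471 rows of the genotype table. All 10 passed the filters on low counts in every comparison. In the time course, livers of wild-type C57BL/6J males aged 2, 6, and 12 months were taken at zeitgeber time (ZT, hours after lights on) 1, 5, 9, 13, 17, and 21, with 1 library per age and ZT. In the genotype experiment, livers came from WT littermate controls and from liver-specific *Egr-1* KO mice, in which Cre under the albumin promoter of hepatocytes acts on floxed *Egr-1* alleles in a line brought from strain 129 to C57BL/6J. Each age had 1 WT and 1 KO library at each of 2 clock times named H and L, which were ZT13 and ZT17 at 2 months, ZT9 and ZT21 at 6 months, and ZT5 and ZT21 at 12 months. The study speaks of several mice per group in its analysis of WT and KO livers, without saying whether their RNA was pooled into each library, and the sources used here do not give the number of mice behind a time-course library or the floxed alleles of the controls. The ZTs, or the 6 pairs of WT and KO libraries, stand in for replicates below, so a p-value measures only the spread between these libraries.

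Library totals were 13375377 to 16557378 counts in the time course and 13747706 to 21748956 counts in the genotype experiment. All 6 hepatocyte markers examined were above 1 CPM (counts scaled to a common library size) in every group of libraries. The 6-month libraries of the time course stood apart. Acute-phase genes summed to 23042 to 76648 CPM at 6 months, against 4923 to 6822 CPM at 2 months and 3767 to 8750 CPM at 12 months. In 6 against 2 months, 7 of 7 acute-phase genes, 3 of 6 Kupffer cell markers, and 2 of 6 endothelial markers were higher. So were 3 of 4 tested cholangiocyte markers and 3 of 6 pericentral hepatocyte markers, and 4 of 6 periportal hepatocyte markers were lower. Of 6 hepatocyte markers 1 was higher and 1 lower, and of 7 stellate cell and fibroblast markers 1 was lower. The pericentral markers summed to 4112 to 5883 CPM at 6 months and 4022 to 7342 CPM at 2 months. The cholangiocyte markers summed to 37.5 to 145 CPM at 6 months and to 29.7 to 46.6 CPM at 2 months. The part of these differences in the results at 6 months was not tested.

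Nuclear receptors are transcription factors that bind DNA and, in most members, a small lipophilic ligand in the same protein. RXRα, encoded by *Rxra*, is the partner with which PXR, CAR, LXRα, PPARδ, and the thyroid hormone receptor pair on DNA, whereas HNF4α, the glucocorticoid receptor, and ERα mostly bind as homodimers and LRH-1 binds as a monomer. In liver, these receptors set hepatocyte identity, sense bile acids, sterols, fatty acids, and foreign compounds, and pass hormone signals to metabolic genes.

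The genes lie on 7 chromosomes of GRCm38, all are protein coding, and 9 of the 10 matched a RefSeq promoter window, which covers 250 bases before and 50 bases after a transcription start. *Nr3c1* is named only. The windows were searched on both strands for the E-box CACGTG bound by CLOCK and BMAL1, the D-box TTATGTAA, the hexamer AGGTCA on which many nuclear receptors bind, and the motif GCGNGGGCG of the EGR family. These were held by 7.15%, 0.938%, 16.3%, and 5.55% of 32851 windows of the same length from the genes used. The E-box was found in windows of *Nr1i3* and *Thrb*, the D-box in none of the 9 genes, the hexamer in *Nr5a2*, *Rxra*, and *Thrb*, and the EGR motif in *Ppard* and *Rxra*. Such a match describes letters and does not show that a factor binds there. The upstream stretches of 3 genes are shown because *Ppard* had the widest daily range, *Nr1i3* was called rhythmic at 6 months, and *Thrb* had the lowest p between genotypes. Each is written 5′ to 3′ on the plus strand of GRCm38.p6 up to the first annotated exonic base, with the matched motif in capitals: *Ppard* at chr17:28232504-28232699, *Nr1i3* at chr1:171213720-171213969, and *Thrb* at chr14:17660710-17660891.
Ppard: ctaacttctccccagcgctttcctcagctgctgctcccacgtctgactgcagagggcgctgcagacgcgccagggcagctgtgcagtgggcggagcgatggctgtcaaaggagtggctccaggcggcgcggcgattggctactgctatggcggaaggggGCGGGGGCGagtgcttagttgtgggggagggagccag
Nr1i3: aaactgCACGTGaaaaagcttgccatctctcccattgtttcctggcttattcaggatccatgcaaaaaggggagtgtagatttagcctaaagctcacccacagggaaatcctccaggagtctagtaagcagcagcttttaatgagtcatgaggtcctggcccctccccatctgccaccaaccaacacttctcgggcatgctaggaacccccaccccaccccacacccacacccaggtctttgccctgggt
Thrb: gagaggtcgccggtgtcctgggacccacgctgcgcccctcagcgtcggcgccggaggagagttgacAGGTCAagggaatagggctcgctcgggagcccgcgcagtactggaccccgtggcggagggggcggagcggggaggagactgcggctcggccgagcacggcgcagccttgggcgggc
The capitals mark the EGR motif 91 bases before the start in *Ppard*, the E-box 244 bases before the start in *Nr1i3*, and the hexamer 184 bases before the start in *Thrb*.

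The level of the 10 receptors spanned about 2 orders of magnitude. On the FPKM scale, which divides by exon length and lets genes be compared, *Hnf4a*, the receptor that maintains hepatocyte identity, was highest, with 67.4 as its lowest, 92.4 as its median, and 139 as its highest value over the 18 time-course libraries. *Nr1h3*, the oxysterol sensor LXRα, followed with FPKM of 41.9, 48.5, and 65.4. *Rxra*, the common partner, had FPKM of 30.1, 42.6, and 56.6. Next in order were *Nr1i2*, the xenobiotic sensor PXR, with a median FPKM of 19.3, *Nr3c1*, the glucocorticoid receptor, with 10.4, and *Nr5a2*, the bile acid regulator LRH-1, with 6.48. The lowest 4 were *Thrb*, the main hepatic thyroid hormone receptor, with a median FPKM of 3.5, *Nr1i3*, the xenobiotic sensor CAR, with 2.35, *Esr1*, the estrogen receptor ERα, with 1.41, and *Ppard*, the fatty acid sensor PPARδ, with 0.998. Only between *Hnf4a* and *Nr1h3*, and between *Nr5a2* and *Thrb*, did neighbours in this order have ranges that did not overlap.

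**Figure D1:**
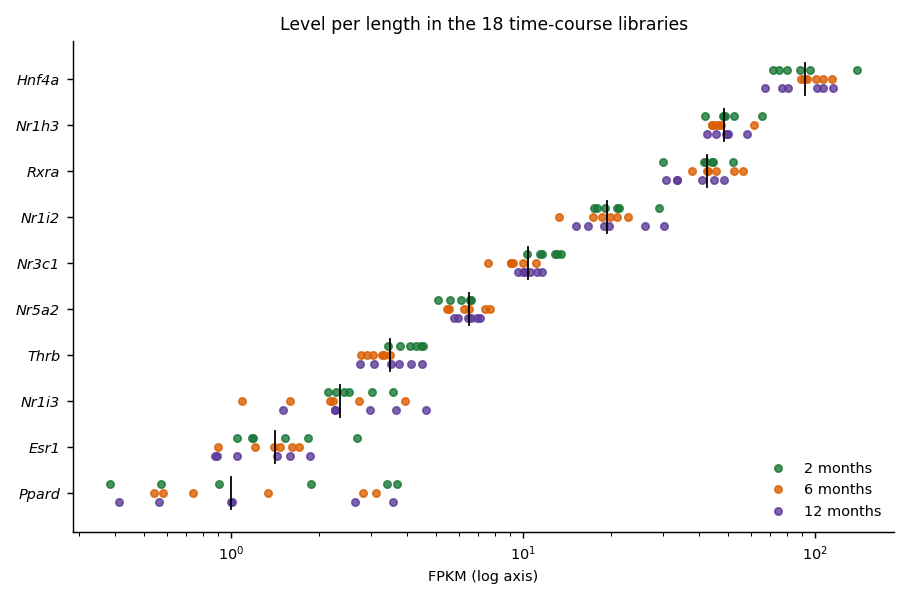
Level of each receptor in FPKM (log axis) in the 18 time-course libraries, with 1 point per library and a bar at the median. *Hnf4a* lies highest, with a time-course median of 92.4 FPKM, and *Ppard* lowest, with a median of 0.998 FPKM and the widest spread.

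The *Nr1i3* gene on chromosome 1 (171213970 to 171220701, plus strand) shares 3304 of its 4414 exon bases with *Tomm40l* on the opposite strand, and the strand setting of the counting was not given in the sources used here, so reads of the 2 genes cannot be told apart. *Tomm40l* itself was at 4.87 to 9.41 CPM in the time course and 4.604 to 7.51 CPM in the genotype experiment. The median CPM of *Nr1i3* was 10.8 in the time course and 30.7 in the genotype experiment, a ratio of 2.85, whereas that ratio was 1.92 for *Ppard* and 0.791 to 1.45 for the other 8 receptors. The 2 tables were normalized separately, and no test was made between them.

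To determine which receptors followed the time of day, the 6 values of each age were tested for a 24-h rhythm by permuting all orders of the values exactly, with a rank score as in JTK. The smallest p that 6 values allow in this exact test is 0.0333 and the next is 0.133. At 2 months none of the 10 receptors reached the smallest p, against 8.66% of 12470 genes. At 6 months *Hnf4a*, *Nr1i3*, and *Ppard* reached it, against 8.18% of genes, and at 12 months *Esr1* reached it, against 6.43%. A cosine curve of 24 h fitted in edgeR over all 18 libraries, called at an adjusted p under 0.05, gave *Ppard* and *Esr1* at 2 months (4.72% of 14268 genes called), *Ppard* and *Nr1i3* at 6 months (4.62%), and *Ppard* at 12 months (3.53%). *Ppard* at 6 months and *Nr1i3* at 6 months were thus the calls that both tests gave.

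**Figure D2:**
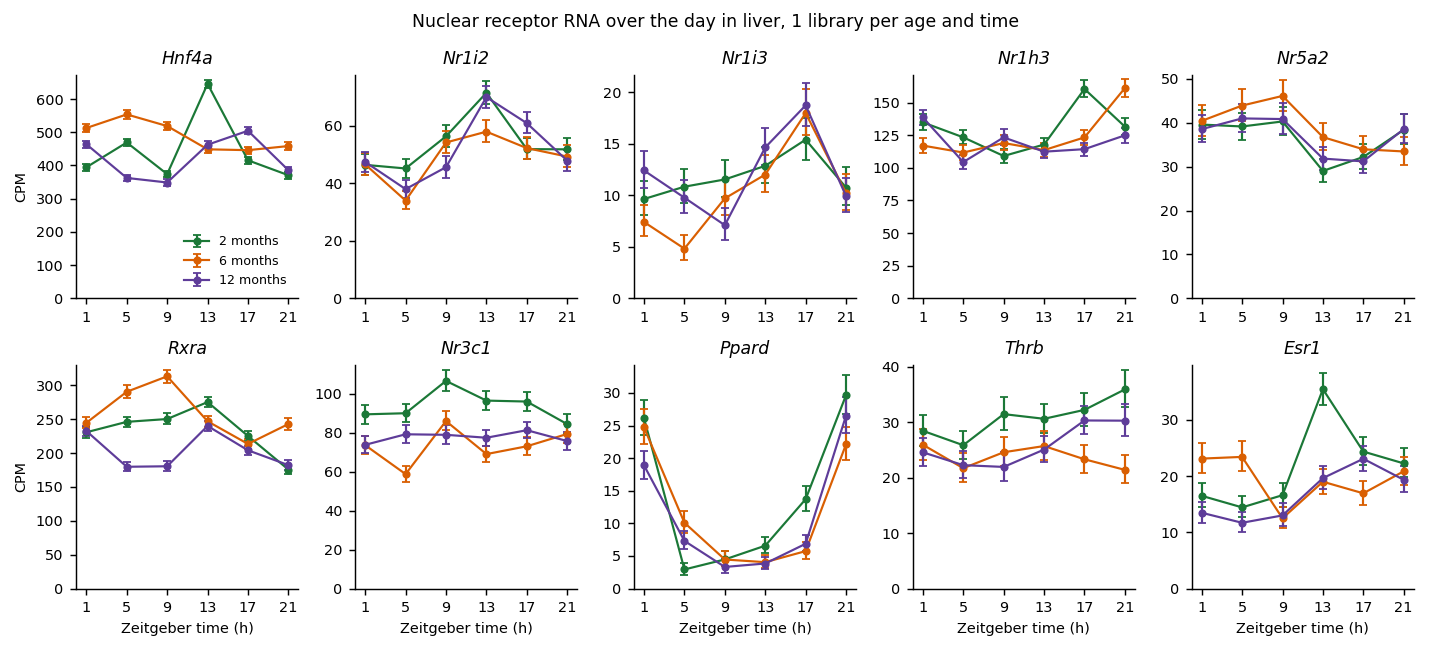
CPM of each of the 10 receptors against ZT in hours, with 1 point per library and 1 line per age. *Ppard* falls from above 18 CPM at ZT1 and ZT21 to below 7 CPM at ZT9 and ZT13 in all 3 ages, while lines of *Nr3c1* and *Thrb* at 2 months lie above those at 6 and 12 months at each ZT.

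*Ppard* (chromosome 17, 28232700 to 28301474, plus strand), whose product PPARδ drives fatty acid use, had the widest daily range. At 2 months, its CPM at ZT1, ZT5, ZT9, ZT13, ZT17, and ZT21 were 26.1, 2.93, 4.46, 6.57, 13.7, and 29.7. At 6 months they were 24.7, 10.1, 4.45, 4.05, 5.74, and 22.1 CPM. At 12 months they were 18.9, 7.31, 3.31, 3.84, 6.86, and 26.5 CPM. The 2 highest libraries of each age were those of ZT21 and ZT1, and the next highest were at 13.7, 10.1, and 7.31 CPM. The highest library was 10.1, 6.11, and 8.01 times the lowest at 2, 6, and 12 months. The fitted curve had log2 amplitudes of 1.60, 1.47, and 1.56 and peaked at ZT21.2, ZT23.8, and ZT22.7, with edgeR adjusted p of 0.000771, 0.00151, and 0.00176. The exact permutation p was 0.133 at 2 months, 0.0333 at 6 months, and 0.133 at 12 months. Among 7 genes known as targets of PPAR receptors, which are shared by PPARα, *Pdk4*, a brake on glucose oxidation, was called by the cosine fit at 2 and 12 months with peaks at ZT22.7 and ZT22.3. Other targets called had peaks at other times. *Cpt1a*, which carries fatty acids into mitochondria, was called by that fit at 2 and 6 months with peaks at ZT9.87 and ZT10.7 (adjusted p = 0.000656 and 0.00157). *Angptl4*, an inhibitor of lipoprotein lipase, was called at the same ages with peaks at ZT12.3 and ZT8.50 (adjusted p = 0.0151 and 0.0473), and *Plin2*, a lipid droplet coat protein gene, at 6 months with a peak at ZT3.98 (adjusted p = 0.0489).

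**Figure D3:**
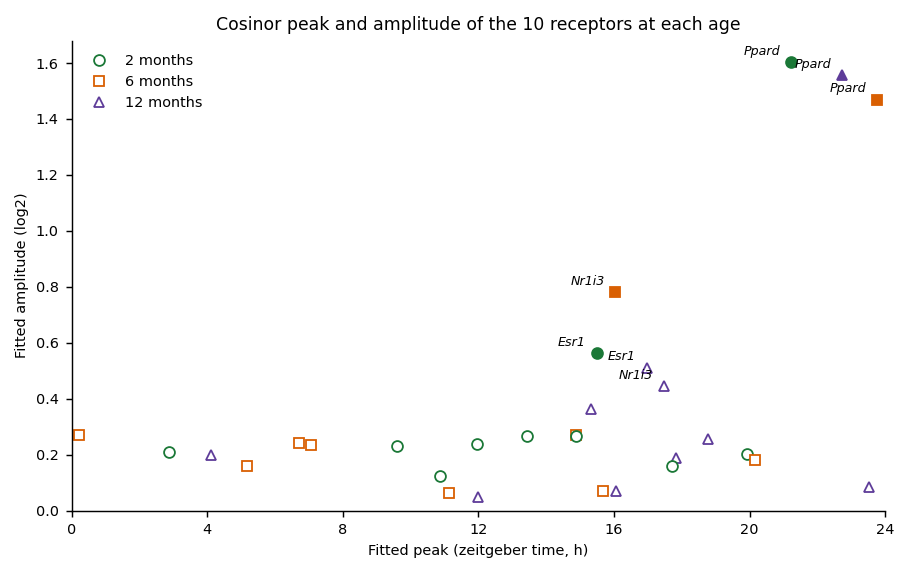
Log2 amplitude of the fitted 24-h curve against its peak in ZT hours for the 10 receptors at 2, 6, and 12 months, with filled symbols for an edgeR adjusted p under 0.05. *Ppard* lies apart at amplitudes of 1.47 to 1.60, and the next highest is *Nr1i3* at 6 months at 0.78.

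The xenobiotic receptors were highest in the dark phase. *Nr1i3*, encoding CAR, had CPM of 9.64, 10.8, 11.5, 12.9, 15.4, and 10.7 from ZT1 to ZT21 at 2 months. At 6 months the values were 7.41, 4.82, 9.70, 12.0, 17.97, and 10.2 CPM. At 12 months they were 12.4, 9.76, 7.10, 14.6, 18.7, and 9.92 CPM. ZT17 was highest at all 3 ages, and the curve was called at 6 months, with a log2 amplitude of 0.78, a peak at ZT16.0, and an edgeR adjusted p of 0.0207. The adjusted p was 0.528 at 2 months and 0.225 at 12 months. *Nr1i2*, encoding PXR, was highest at ZT13 and lowest at ZT5 at all 3 ages, at 71.4 and 45.1 CPM at 2 months, 57.9 and 34.0 CPM at 6 months, and 69.9 and 37.9 CPM at 12 months. Its curve was not called at any age by edgeR (adjusted p = 0.262, 0.285, and 0.120). Of 12 known target genes of PXR and CAR, *Alas1*, which starts heme synthesis, was called by the cosine fit at each age, with peaks at ZT13.1, ZT14.2, and ZT13.5. *Por*, the electron donor of cytochrome P450 enzymes, was also called at each age, with peaks at ZT12.1, ZT13.4, and ZT13.9, and *Cyp2b10*, the classical CAR target, was called at 6 months alone, with a peak at ZT20.4.

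*Esr1* (chromosome 10, 4611593 to 5005614, plus strand), encoding ERα, had CPM of 16.5, 14.4, 16.6, 35.5, 24.4, and 22.3 from ZT1 to ZT21 at 2 months. At 6 months the values were 23.1, 23.4, 12.5, 19.0, 16.9, and 20.9 CPM. At 12 months they were 13.5, 11.7, 13.01, 19.7, 23.1, and 19.4 CPM. The 3 dark-phase libraries were the 3 highest at 2 and at 12 months but not at 6 months. The fitted peak was ZT15.5 at 2 months (log2 amplitude 0.56, edgeR adjusted p = 0.0365) and ZT17.0 at 12 months (0.51, adjusted p = 0.0825).

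*Hnf4a* ranged from 371 to 646 CPM at 2 months, from 446 to 554 CPM at 6 months, and from 349 to 504 CPM at 12 months. Its highest library was at ZT13, ZT5, and ZT17 at 2, 6, and 12 months, and the edgeR adjusted p of its curve was 0.443, 0.701, and 0.646. The smallest permutation p at 6 months thus went with a log2 amplitude of 0.16. *Nr5a2*, encoding LRH-1, was lowest in a dark-phase library at each age, at 29.0, 33.5, and 31.2 CPM, against highest values of 40.3, 46.1, and 41.0 CPM, but its curve was not called (edgeR adjusted p = 0.254, 0.167, and 0.318). *Rxra*, *Nr1h3*, *Nr3c1*, and *Thrb* had fitted log2 amplitudes of 0.05 to 0.26 over the 3 ages, and the lowest adjusted p among them was 0.188, for *Thrb* at 12 months.

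Whether the rhythm changed between ages was tested by the interaction of age with the curve. In 6 against 2 months, 0.23% of genes were called and 0 of the 10 receptors. The unadjusted p was under 0.05 for 3 of them, with adjusted p of 0.201 for *Esr1*, 0.352 for *Ppard*, and 0.354 for *Nr1i3*, and 11.3% of genes had an unadjusted p that low. DESeq2 called 266 genes in this comparison, among them *Esr1* (adjusted p = 0.0467). Between 12 and 2 months, edgeR called 0.0% of genes, while 4.45% of 14001 genes had an unadjusted p under 0.05, none of them a receptor described here, and DESeq2 called 22 genes.

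The hormone receptors *Nr3c1* and *Thrb* were lower at 6 than at 2 months. *Nr3c1* (chromosome 18, 39410545 to 39519421, minus strand) encodes the glucocorticoid receptor, which drives gluconeogenic and stress genes. Its CPM from ZT1 to ZT21 were 89.4, 90.0, 107, 96.5, 96.0, and 84.4 at 2 months. They were 73.6, 58.8, 86.0, 69.0, 73.0, and 79.4 CPM at 6 months. They were 73.8, 79.2, 78.9, 77.4, 81.3, and 75.7 CPM at 12 months. All 12-month libraries were below all 2-month libraries, which held for 4.23% of 12470 genes, and the 6-month range reached just into that of 2 months. In a liver sample, fewer cells of a type and less RNA per cell cannot be told apart. In 6 against 2 months, *Nr3c1* fell by 0.38 on the log2 scale (SE 0.08, edgeR adjusted p = 0.0153) and was lower at 6 of 6 ZTs.

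*Thrb* (chromosome 14, 17660261 to 18038090, plus strand), encoding the thyroid hormone receptor TRβ, had CPM of 28.4, 25.8, 31.4, 30.6, 32.2, and 35.9 from ZT1 to ZT21 at 2 months. At 6 months the values were 25.9, 21.7, 24.6, 25.7, 23.3, and 21.4 CPM. At 12 months they were 24.6, 22.2, 21.9, 25.1, 30.3, and 30.3 CPM. The 6-month libraries overlapped the 2-month range by 1 library, and the 12-month libraries of ZT17 and ZT21 lay within it. In 6 against 2 months, *Thrb* fell by 0.38 on the log2 scale (SE 0.09, edgeR adjusted p = 0.0238) and was lower at 6 of 6 ZTs. Without ZT9, ZT17, or ZT21 its adjusted p was 0.0659, 0.0644, and 0.0693. The 2 receptors called in this comparison were both lower, against 11.5% of 13895 genes called and 6.01% called lower, and the 8 others had edgeR adjusted p of 0.264 or above. The median log2 change of the 10 was -0.15, against 0.00 over all genes.

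In 12 against 2 months, 3 of the 10 receptors were called, all lower, against 14.5% of 14001 genes called and 6.85% called lower. *Nr3c1* fell by 0.26 on the log2 scale (SE 0.07, edgeR adjusted p = 0.0272), *Thrb* by 0.25 (SE 0.08, adjusted p = 0.0418), and *Esr1* by 0.34 (SE 0.10, adjusted p = 0.0405), each lower at 6 of 6 ZTs. These calls lay close to the threshold. With library totals in place of TMM factors, 0 of the 3 were called, with adjusted p of 0.112, 0.174, and 0.102. Leaving out 1 ZT left 0 to 2 receptors called: *Nr3c1* was lost without any of ZT1, ZT5, ZT9, ZT13, or ZT17 (adjusted p = 0.0506 to 0.0777), *Thrb* without any ZT but ZT17 (0.0796 to 0.1004), and *Esr1* without any ZT but ZT17 (0.0621 to 0.127). *Ppard* was at -0.29 (SE 0.21, adjusted p = 0.395) with all ZTs and at -0.54 (adjusted p = 0.0203) without ZT5. In the same comparison, 4 of 7 stellate cell and fibroblast markers were higher and 1 lower, and 4 of 6 periportal hepatocyte markers were lower. The stellate cell and fibroblast markers summed to 282 to 335 CPM at 2 months and 341 to 481 CPM at 12 months, the periportal markers to 2000 to 3265 CPM and 1567 to 1780 CPM, and their part in these results was not tested.

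Between 12 and 6 months, 0 of the 10 receptors were called in edgeR, against 10.2% of 14047 genes, and DESeq2 also called 0 of them. With all 18 libraries in 1 edgeR fit, *Rxra* was called (adjusted p = 0.0474). *Rxra*, at 213 to 313 CPM at 6 months and 180 to 240 CPM at 12 months, had the only unadjusted p under 0.05, which 26.3% of genes had, with a log2 difference of -0.33 (SE 0.13, adjusted p = 0.131) and a lower level at 6 of 6 ZTs. *Hnf4a*, *Nr1h3*, *Nr1i2*, and *Nr5a2* were called at no age comparison of the time course. For *Hnf4a*, the 95% interval of the log2 difference in 12 against 2 months was -0.30 to 0.18, and for *Nr5a2* it was -0.12 to 0.18.

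**Figure D4:**
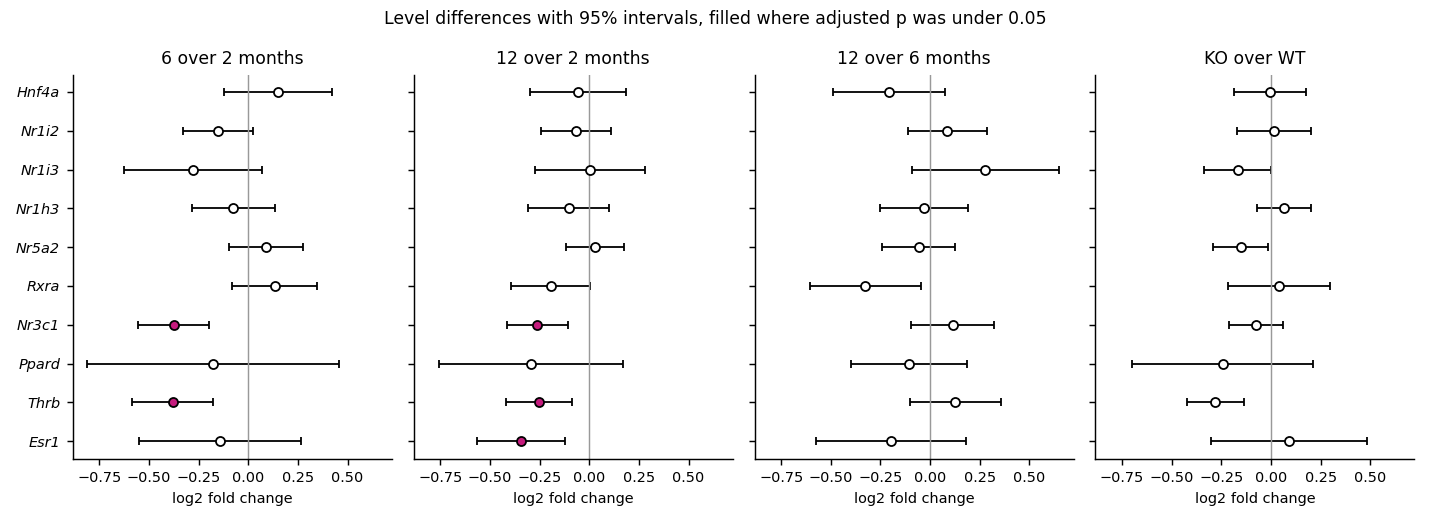
Log2 difference of each receptor between ages in the time course and between KO and WT, with 95% intervals and filled points for an edgeR adjusted p under 0.05. *Nr3c1* and *Thrb* lie below 0 in 6 against 2 months at -0.38 each, and no receptor is filled for KO against WT.

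The known target genes did not move as 1 block with the receptor named for them. Of 6 thyroid hormone targets, 5 were lower at 6 than at 2 months, among them *Thrsp*, which promotes lipogenesis, at -1.35 on the log2 scale, *Gpd2*, a mitochondrial shuttle enzyme, at -0.66, and *Dio1*, which converts thyroid hormone, at -0.47. Later, in 12 against 2 months, *Dio1* fell by 1.34 on the log2 scale, *Klf9*, a target of both TRβ and the glucocorticoid receptor, fell by 0.54, and *Me1*, which supplies NADPH, was higher at 1.30. Of 11 glucocorticoid targets, 1 was lower at 6 months, *Klf9* at -0.36, and 3 were lower in 12 against 2 months, *Klf9*, the leucine zipper gene *Tsc22d3* at -0.65, and *Pck1*, the entry enzyme of gluconeogenesis, at -0.87. Of 7 PPAR targets, 2 were lower at 6 months, among them *Cpt1a* at -0.34, and 1, *Pdk4*, was higher at 12 months at 0.97.

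Among 12 targets of PXR and CAR, 2 were higher and 2 lower at 6 than at 2 months, and 5 were higher and 0 lower at 12 than at 2 months. *Cyp3a11*, the major PXR-induced cytochrome P450, was higher in both, at 0.88 and 1.09 on the log2 scale, and *Gadd45b*, a CAR coactivator and target, at 1.60 and 1.26. The bile acid and conjugate exporters *Abcc2* and *Abcc3* were at -0.68 and -0.61 in 6 against 2 months. Among 10 LXR targets, 1 was higher and 4 lower at 6 months, including *Srebf1*, the lipogenic regulator, at -0.69, while 3 were higher and 0 lower at 12 months, including the lipid transfer protein gene *Pltp* at 1.66 and the desaturase gene *Scd1* at 1.27. Of 9 HNF4α targets, 3 were lower at 6 months, *Cyp8b1* of bile acid synthesis at -1.35, *G6pc* of glucose release at -1.03, and *Otc* of the urea cycle at -0.54. Of the same 9, 2 were lower in 12 against 2 months, *Otc* at -0.37 and the clotting factor gene *F9* at -0.33, and 1 was higher, *Ttr* at 0.39. Of 6 LRH-1 targets, 2 were lower at 6 months, *Cyp8b1* and the HDL receptor gene *Scarb1* at -0.37. At 12 against 2 months *Scarb1* at -0.55 and *Nr0b2*, the corepressor SHP, at -0.50 were lower, and 1 of the 6 was higher. Of 5 ERα targets, 2 could be tested, and 0 were called in either comparison.

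Other receptors and the coregulators that receptors recruit were counted in the same way. Of 22 further receptors tested of 24 listed, 2 were higher and 2 lower at 6 than at 2 months, and 3 were higher and 1 lower at 12 than at 2 months. *Pparg*, the lipogenic PPAR, was higher at 12 months at 1.25 on the log2 scale. *Thra*, which encodes the other thyroid hormone receptor, was higher at 12 months at 0.40 on that scale while *Thrb* fell. Of 12 coactivators and corepressors, 0 were called in 6 against 2 months and 1, which was lower, in 12 against 2 months.

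To ask whether loss of *Egr-1* changed the receptors, the 6 pairs of WT and KO libraries were compared. *Egr1* itself was lower in the library labelled KO in 4 of 6 pairs (log2 difference -1.76, SE 0.79, adjusted p = 0.324). In the 2-month pair at L it was 1.45 CPM in WT and 7.43 CPM in KO, and in the 12-month pair at H it was 5.83 and 6.11 CPM. Libraries are therefore named by their labels. The mean of the log2 values at H and that at L were also nearly equal for every receptor in this table, with differences of -0.001 to 0.012. Over 10869 genes these differences had an SD of 0.013, below the median counting error of 0.045 and far below the SD of 0.23 between genotypes. A comparison of H with L was therefore void, with 0 genes called by edgeR and 3 genes at an unadjusted p under 0.05, and the levels of single libraries at H or L carry the same constraint.

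No receptor was called between genotypes in edgeR, against 1.36% of 14843 genes, and DESeq2 also called 0 of the 10. At an unadjusted p under 0.05, 3 of the 10 were found, *Thrb*, *Nr5a2*, and *Nr1i3*, against 15.3% of genes. *Thrb* had WT and KO values of 29.8 and 23.9 CPM at 2 months H, 27.9 and 22.3 CPM at 2 months L, and 32.6 and 24.1 CPM at 6 months H. The other pairs were 32.6 and 27.7 CPM at 6 months L, 30.3 and 26.9 CPM at 12 months H, and 29.9 and 26.7 CPM at 12 months L. All 6 KO libraries were below all 6 WT libraries, and ranges failed to overlap for 0.952% of 12707 genes. The log2 difference of *Thrb* was -0.28 (SE 0.06, adjusted p = 0.0688), which missed the threshold. With library totals it was -0.16 (adjusted p = 0.239), and without the pairs of 2 months L and 12 months H, in which *Egr1* was not lower, it was -0.29 (adjusted p = 0.307). *Nr5a2* was lower in 6 of 6 pairs by a log2 difference of -0.15 (SE 0.06, adjusted p = 0.279), and *Nr1i3* in 5 of 6 pairs by -0.17 (SE 0.08, adjusted p = 0.322). These differences were -0.03 and -0.04 with library totals.

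**Figure D5:**
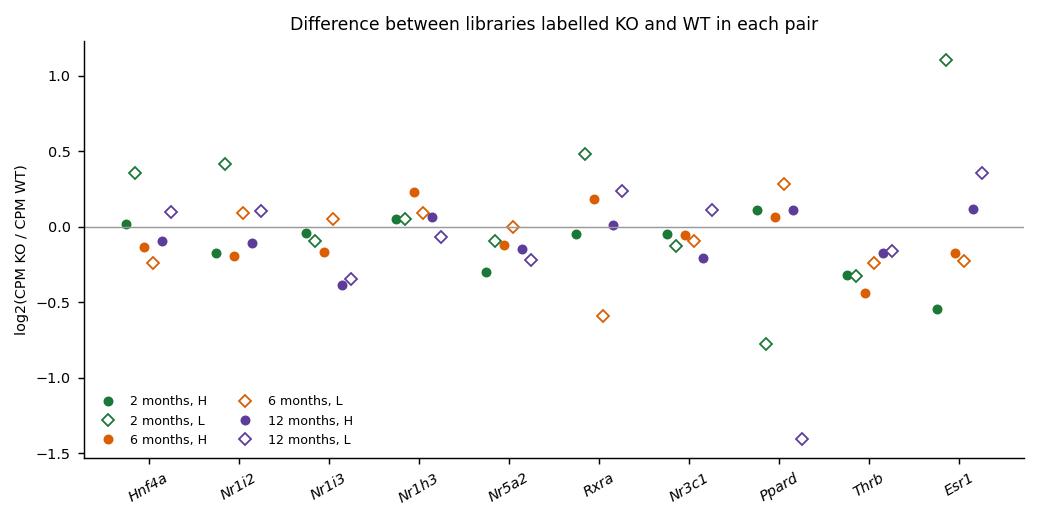
Log2 ratio of KO to WT CPM of each receptor in the 6 pairs of libraries labelled WT and KO, with a point per pair. All 6 points of *Thrb* are negative, at -0.44 to -0.16, while those of *Esr1*, *Rxra*, and *Hnf4a* have both signs.

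For the other receptors the pairs ran in both directions or differed little. *Hnf4a* had a log2 difference of -0.01 with a 95% interval of -0.19 to 0.17, *Nr1h3* of 0.06 with an interval of -0.07 to 0.20, and *Nr3c1* of -0.08 with an interval of -0.21 to 0.06. *Ppard* and *Esr1* varied most between pairs. *Ppard* was 29.1 CPM in WT and 10.97 CPM in KO at 12 months L, and 10.4 and 6.08 CPM at 2 months L, but was higher in KO in the other 4 pairs. *Esr1* was 13.7 CPM in WT and 29.5 CPM in KO at 2 months L, and 30.3 and 20.8 CPM at 2 months H. *Rxra* was 426 CPM in WT and 283 CPM in KO at 6 months L, and 269 and 375 CPM at 2 months L. Whether the genotype difference depended on age or on H and L was tested by interaction terms, which called 0 of the 10 receptors, against 0.0135% and 0.00674% of genes.

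Of the known targets, 2 of 12 PXR and CAR targets were lower in KO, the carboxylesterase gene *Ces2a* at -0.71 and the bile acid and drug importer gene *Slco1a4* at -1.15 on the log2 scale. *Abca1*, the cholesterol exporter induced by LXR, fell by 0.33, and *Apob*, an HNF4α target of lipoprotein assembly, fell by 0.39. None of the 6 LRH-1, 11 glucocorticoid, 7 PPAR, 6 thyroid hormone, or 2 tested ERα targets was called, nor any of the 22 further receptors or 12 coregulators. Hepatocyte markers moved with genotype: 3 of 6 were lower in KO, with *Alb* at -0.89, *Apoa1* at -0.77, and *Fgb* at -0.48, and their summed level was 71271 to 93070 CPM in WT and 40612 to 58759 CPM in KO. Of 6 pericentral markers 2 were higher, *Glul* and *Oat* at 0.43 and 0.88, and 0 lower. Of 6 periportal markers 2 were lower, *Cyp2f2* and *Cdh1* at -0.49 and -0.89, and 0 higher. The summed levels of both lists overlapped between genotypes. The periportal sum was 1816 to 5445 CPM in WT and 1714 to 4262 CPM in KO, with medians of 2847 and 3141 CPM. The pericentral sum was 5690 to 7462 CPM in WT and 6116 to 10653 CPM in KO. The part of these differences in the receptor values was not tested.

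Age could also be compared within the genotype experiment, over the 4 libraries of 12 months and the 4 of 2 months, though their clock times differed. In that comparison 1 of the 10 receptors was called, against 11.7% of 14389 genes called and 6.52% called lower. *Nr1i3* fell by 0.45 on the log2 scale (SE 0.10, edgeR adjusted p = 0.0154), from 33.1 to 37.2 CPM at 2 months to 21.9 to 30.05 CPM at 12 months. With the 6 WT libraries alone it was at -0.30 (adjusted p = 0.602). The 4 and 4 libraries did not overlap for *Nr1i3* and *Nr1h3*, against 19.6% of 12707 genes. In the time course the same comparison gave 0.00 for *Nr1i3* (95% interval -0.27 to 0.28). *Nr3c1* and *Thrb*, which were called lower in the time course, were at 0.04 (SE 0.08) and 0.15 (SE 0.08) in the genotype experiment, and neither was called. *Esr1* was at -0.68 (SE 0.23, adjusted p = 0.0808). *Ppard* was at 1.16 (SE 0.42, adjusted p = 0.107), and at 1.17 (adjusted p = 0.0175) in a fit of the 8 libraries of 2 and 12 months alone. Cell type markers moved in this comparison too. Of 6 hepatocyte markers 3 were lower, and their summed level was 80425 to 86006 CPM at 2 months and 71271 to 79565 CPM at 12 months in WT, and 55127 to 58759 and 40612 to 47850 CPM in KO. Of 6 periportal markers 2 were lower, of 6 pericentral markers 1 was higher and 1 lower, of 7 stellate cell and fibroblast markers 1 was higher, and of 5 lymphocyte markers 2 were higher. The 1 adipocyte marker tested, *Cidec*, was higher at 3.59 on the log2 scale. The 4 listed summed to 4.94 to 6.41 CPM at 2 months and 52.4 to 79.6 CPM at 12 months, nearly all of it *Cidec*. *Adipoq*, *Plin1*, and *Lep* reached at most 0.21, 0.11, and 0.06 CPM in any genotype library and were too low to be tested. The part of these differences in the receptor values was not tested. The age differences of the 2 tables were not tested against each other.

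The genes whose log2 CPM followed each receptor most closely over the 12 genotype libraries were found by Pearson's r. These values only describe libraries that share age, clock time, or genotype, and they carry the constraint on H and L given above. For *Ppard* the closest were *Ppp1r3c* (r = 0.94), *Frat1* (0.94), and *Sgpl1* (0.93). The gene most opposite to *Ppard* was *Nr1d2* (-0.97), encoding the clock repressor REV-ERBβ. Among clock genes looked at after their values were seen, *Arntl* had an r of 0.92 with *Ppard*, *Dbp* of -0.88, and *Nr1d1* of -0.009. For *Hnf4a* the closest were *Gm45819* (0.96), *Baz1a* (0.94), and *Zscan29* (0.93). For *Nr1i3* they were *Slc30a1* (0.97), *Aldh1l1* (0.96), and *Dhodh* (0.96), and for *Thrb* they were *Sox9* (0.96), *Mir22hg* (0.93), and *Rsbn1l* (0.90). Between receptors, *Hnf4a* and *Rxra* had an r of 0.76 over the same 12 libraries, *Nr1i2* and *Nr1i3* of 0.60, and *Nr5a2* and *Nr1i3* of 0.09.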

How the data were processed

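RNA sequencing of poly(A) RNA from mouse liver gave 18 time-course libraries and 12 libraries of the genotype experiment. The authors trimmed reads with fastp, aligned them to mm10 with HISAT2, and counted reads per gene with featureCounts, versions not given in the sources used here. The deposited counts are described as raw and without normalization. The labels call them estimated counts, but all values are whole numbers. From these, CPM were computed from library totals and TMM factors of edgeR 4.0.16 (R 4.3.3), and FPKM from library totals and exon lengths of GENCODE M21, which matched 53775 of 54429 symbols and 55144 of 55471 identifiers. The annotation behind the counts was not given in the sources used here. In the genotype experiment, the log2 means at H and L differed with an SD of 0.013, below the median counting error of 0.045. Whether those counts were altered before deposit is not known, and all tests of genotype and of age in that experiment rest on them.

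Levels were compared by edgeR's quasi-likelihood test after filterByExpr, with ZT or pair as a block, and p-values were adjusted over all genes tested by Benjamini-Hochberg at a threshold of 0.05. Rhythms were tested by exact permutation of a JTK rank score (best of all phases) at a mean of at least 1 CPM, unadjusted, and by a cosinor in edgeR. DESeq2 1.42.0 was an alternative. Counting error alone was small for receptors with high counts but not at the lowest values of *Ppard* and *Nr1i3*. *Ppard* at 12 months ZT9 had 42 counts, with a 95% counting interval of 2.39 to 4.48 CPM. *Nr1i3* at 6 months ZT5 had 64 counts, with an interval of 3.71 to 6.16 CPM. There were no replicates within an age and ZT. The fits were tested on simulated data with 200 genes changed 2-fold. The self-test recovered 100% of them for 12 against 2 months and for genotype, and 91.5% for the change of rhythm. False calls in these 3 fits were 7, 11, and 4 genes. The level differences called for receptors in the time course were smaller than 2-fold, so these rates do not apply to them. The receptors and the lists of targets, coregulators, and cell type markers were chosen with earlier results of these data known. For each list, at most 4 called genes with the lowest p were named, and for each receptor up to 3 of the most correlated genes. Some genes that these rules would name are not reported here. Genes named beyond this, clock genes among them, were chosen after their values were seen. Exon overlaps were read from GENCODE M21 and promoter windows from RefSeq. The H and L values enter the comparisons of genotype and of ages and the interaction of genotype with H or L. They also enter the correlations over the genotype libraries and the search for single libraries far from the others.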

Additional observations from a re-analysis of the deposited data

Results flagged for a closer look

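Each receptor was examined in 5 groups of 6 libraries for a highest or lowest library far from the others (Dixon's test at 95%). Of 50 such groups 3 were found, and chance gives about 1 in 20. *Hnf4a* at 2 months was 646 CPM at ZT13, against 469 CPM in the next library. *Nr1h3* at 6 months was 161 CPM at ZT21, against 123 CPM in the next library. *Esr1* in the library labelled WT of 2 months at H was 30.3 CPM, against 17.1 CPM in the next WT library. The time of day differs between the libraries of a group, and its part in these gaps was not tested.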

How the results depend on the processing

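Of the alternative values computed for single receptors, 795 kept direction and side of the threshold, 31 lost the call, 5 gained it, and 29 changed sign, all of differences that were called neither before nor after. The void comparison of H with L is not counted. The number of receptors called moved as follows. In 12 against 2 months it was 3, with 0 under library totals or without the ZT block, 1 without a filter on low counts, in DESeq2, or with all 18 libraries in 1 fit, and 0 to 2 on leaving out 1 ZT. In 6 against 2 months it was 2, and 1 to 2 on leaving out 1 ZT. In 12 against 6 months it was 0, and 1 with all 18 libraries in 1 fit (*Rxra*, adjusted p = 0.0474). For the change of rhythm in 6 against 2 months it was 0, and 1 in DESeq2 (*Esr1*, adjusted p = 0.0467). For age in the genotype experiment it was 1, with 2 in DESeq2 and with the 8 libraries of 2 and 12 months alone, and 0 with the 6 WT libraries alone. For rhythm at 2 months it was 0, and 2 by the cosinor, and at 12 months it was 1, and 2 under library totals. The cause of these moves was not tested.

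The pairs of the genotype test are the libraries of 1 age and clock time. With no replicate block for the pairs, 21 genes in place of 202 were called, and 0 receptors, as with the block. The count of 202 genes was 422 under library totals, 636 without a filter, 430 in DESeq2, 2 in the pairs at H, 54 in the pairs at L, and 45 to 137 on leaving out 1 pair. Without the pairs of 2 months L and 12 months H, an alternative chosen after seeing the data, it was 9.

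Over all genes, the calls in 6 against 2 months were 1604, with 980 without the ZT block and 885 to 1228 on leaving out 1 ZT. In 12 against 2 months they were 2033, and 898 without the block. In 12 against 6 months they were 1438, with 2184 without a filter, 2252 with all 18 libraries, and 628 to 1499 on leaving out 1 ZT. The change of rhythm in 6 against 2 months gave 32 genes, 15 to 266 over other settings and 0 to 103 on leaving out 1 ZT, and in 12 against 2 months 0 genes, 0 to 22 and 0 to 4. The interactions of genotype with age and with H or L gave 2 and 1 genes, and up to 100 and 117. Age in the genotype experiment gave 1679 genes, and 29 with the 6 WT libraries alone. Library totals moved the median log2 difference of all genes by 0.12 in KO against WT, where 358 genes were higher and 64 lower, against 95 and 107. In 12 against 2 months that split was 1465 and 576 against 1074 and 959, in 12 against 6 months 1099 and 475 against 736 and 702, and for age in the genotype experiment 963 and 607 against 741 and 938. With 1 library per age and ZT, a difference at a single ZT has no replicate check.

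The log2 differences that changed sign were these. Under library totals, *Hnf4a* was at 0.0038 in 12 against 2 months and 0.12 in KO against WT, *Nr1h3* and *Nr5a2* at 0.035 and 0.0054 in 12 against 6 months, *Nr3c1* at 0.049 in KO against WT, and *Rxra* at -0.045 for genotype by H or L. In DESeq2, *Nr1i3* was at -0.0015 in 12 against 2 months. In KO against WT, the pairs at H gave -0.16 for *Nr1i2*, 0.093 for *Ppard*, and -0.21 for *Esr1*, the pairs at L gave 0.053 for *Hnf4a*, and the 4 pairs without 2 months L and 12 months H gave -0.045 for *Nr1i2*, -0.054 for *Rxra*, and -0.16 for *Esr1*. On leaving out 1 ZT, the ranges were -0.49 to 0.050 for *Ppard* and -0.31 to 0.024 for *Esr1* in 6 against 2 months, -0.13 to 0.028 for *Hnf4a* and -0.068 to 0.12 for *Nr1i3* in 12 against 2 months, and -0.087 to 0.038 for *Nr1h3* in 12 against 6 months. On leaving out 1 pair, they were -0.070 to 0.039 for *Hnf4a*, -0.055 to 0.066 for *Nr1i2*, -0.038 to 0.16 for *Rxra*, and -0.10 to 0.23 for *Esr1*.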
